A study of Mus musculus with 6 samples.

Results

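The tumour necrosis factor (TNF) superfamily and its receptors were examined in mouse abdominal aorta 7 days after an aneurysm, the local dilation of an artery, had been induced. Members were chosen by name: every row of the deposited count table whose symbol begins with Tnfsf or Tnfrsf and a number, together with Tnf, Lta, Ltb, Ltbr, Fas, Fasl, Cd40, Cd40lg, Cd27 and Cd70. This took 42 of 54532 genes, 17 ligands, 24 receptors and the antisense RNA Tnfsf13os. The samples were 3 libraries from Olfr2 knockout (KO) mice and 3 from wild type (WT) mice. Both groups had the aneurysm induced, and values of single libraries are given in the order of replicates 1 to 3. The comparison is of genotype within diseased tissue and has no aorta without an aneurysm. The labels give neither the strain, age nor sex of the mice, nor the way the aneurysm was induced, nor how many animals gave a library, and p-values therefore measure the spread between these libraries, which may be technical.

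Ligands of this superfamily are mostly membrane proteins that act as trimers, on the cell surface or after release by a protease. Their receptors gather TRAF adaptor proteins, which lead to the NF-kappaB transcription factors, and receptors with a death domain can also start cell death through caspase-8. In an inflamed artery wall the ligands come mainly from leukocytes, while receptors such as those for TNF itself are carried by leukocytes and wall cells alike.

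Library totals lay between 17248918 and 21872027 counts, and the members took 0.121 to 0.154% of them. Olfr2, an olfactory receptor gene and the targeted gene, had 0 counts in all 6 libraries, which allows up to 0.14 to 0.182 CPM (counts scaled to the size of the library; a count of 0 allows up to 3 counts, counting error only), so its count does not check the labels. Some libraries stood apart. Skeletal muscle markers summed to 983 CPM in KO replicate 3 and to between 5.01 and 16.03 CPM in the other 5. Plasma cell markers summed to 2849 CPM in WT replicate 3 and to between 745 and 884 CPM in the other 5. Most of this excess was Ighm, at 2059 CPM in WT replicate 3 and 153 to 251 CPM in the other 5. Jchain and Mzb1 were also highest there, while Sdc1, Xbp1 and Prdm1 lay within the range of the other libraries. Ighg3 differed by group instead, at 13.8 to 32.4 CPM in KO and 0.485 to 1.41 CPM in WT. White adipocyte markers summed to 759 to 1448 CPM in KO, to 173 and 222 CPM in WT replicates 1 and 2 and to 704 CPM in WT replicate 3. As for the labelled tissue, all 7 smooth muscle and all 7 endothelial markers had counts, with smooth muscle sums of 1648 to 2557 CPM in KO and 979 to 1451 CPM in WT.

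Most of the 42 members were present in the aneurysm wall, and at least 1 count was found for all 42. The fit left out 4 for low counts, and 38 entered the fit over 16237 genes. The untested members were Cd70, the ligand of Cd27, with 0, 3 and 1 counts in the KO libraries against 0, 0 and 2 in the WT libraries, Tnfrsf17, a survival receptor of plasma cells, with at most 4 counts in a library, Tnfsf18, the ligand of Tnfrsf18, with 5 to 15 counts, and Tnfrsf19 with 1 to 14 counts. Cd70 and Tnfrsf17 were thus at or near the limit of 3 counts in every library.

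To compare genes with each other, CPM was divided by the length of the gene's exons in kilobases. On this scale the order of the members spanned more than 2 orders of magnitude. The 2 receptors of TNF led. Tnfrsf1b, the TNF receptor found mainly on leukocytes and endothelium, averaged 105 CPM per kilobase over the 6 libraries, and Tnfrsf1a, the widely expressed death domain receptor of TNF, averaged 99.7, above 97.4% and 97.2% of the genes ranked. The ratio of Tnfrsf1b to Tnfrsf1a per kilobase was 0.788, 1.24 and 1.15 in the KO libraries against 1.2, 1.01 and 0.94 in the WT libraries, so neither receptor led in every library. Ltbr, the receptor of lymphotoxin beta, averaged 36.1, Tnfrsf12a, the TWEAK receptor induced in injured tissue, 30.1, and Ltb, the membrane anchor of lymphotoxin, 29.97. Then came Tnfrsf14 at 27.7, Fas at 19.9, Cd40 at 16.2 and Tnf at 12.8 CPM per kilobase. The lowest of the tested members were Tnfrsf8 at 0.832, Tnfsf4 at 0.789 and Tnfsf15 at 0.236 CPM per kilobase. Neighbours in this order, such as Tnfrsf1b and Tnfrsf1a or Tnfrsf12a and Ltb, lay within the spread of their libraries.

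**Figure D1:**
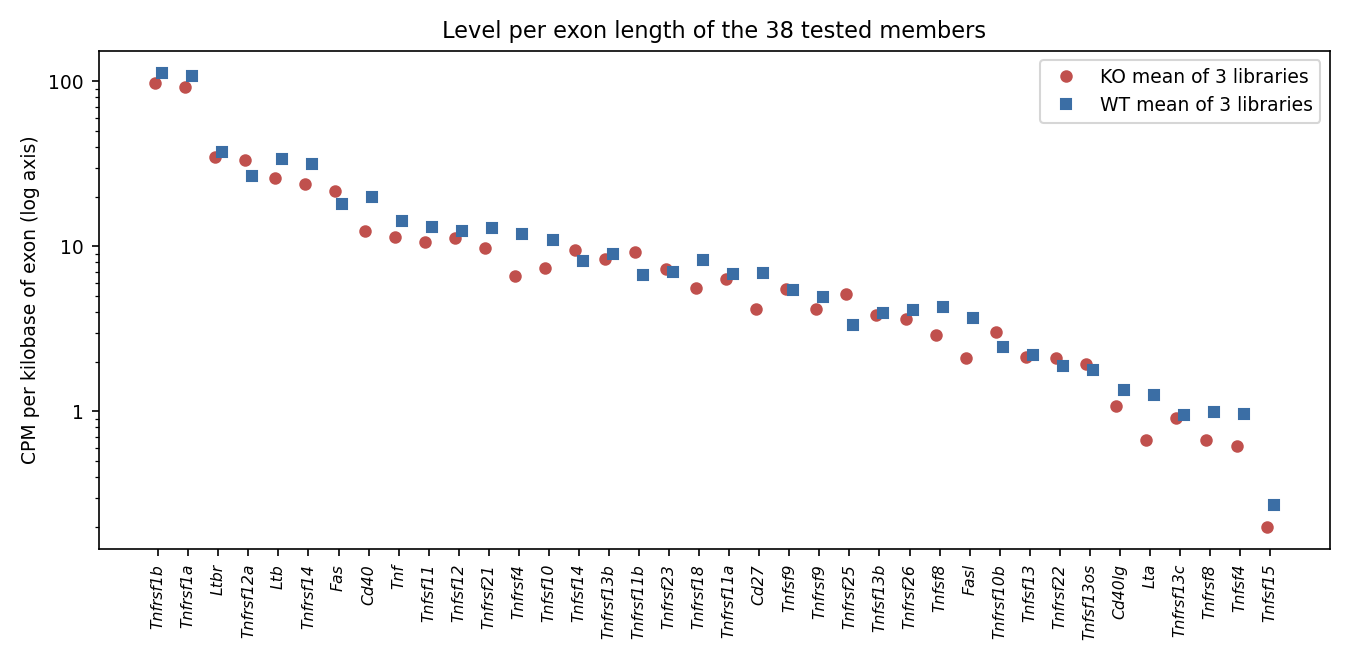
Mean level of the 38 tested members in CPM per kilobase of exon (log axis), with KO means as circles and WT means as squares, 3 libraries each, ordered by the mean of both. Tnfrsf1b and Tnfrsf1a stand highest, near 100 CPM per kilobase, and Tnfsf15 lowest, at 0.236.

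The comparison of KO with WT asks how transcripts of the aneurysm differ where Olfr2 is missing. None of the 38 tested members passed the test, and the fitted value was lower in KO for 13 of 15 tested ligands and 15 of 22 tested receptors. With edgeR's quasi-likelihood test and Benjamini-Hochberg adjustment over all genes, 0 members had an adjusted p under 0.05, where 0.0123% of all genes tested were called, and the smallest adjusted p among members was 0.102. DESeq2 called 3 members, Cd27, Cd40 and Tnfrsf4, where it called 2.78% of all genes, and limma-voom called 0. At an unadjusted p under 0.05 there were 9 members with lower values in KO and 1 with higher values, against 6.08% of all genes in the lower and 5.23% in the higher direction. The 9 lower members were 5 receptors (Cd40, Cd27, Tnfrsf4, Tnfrsf18 and Tnfrsf21) and 4 ligands (Tnfsf8, Tnfsf10, Lta and Fasl), and the higher member was the receptor Tnfrsf25. In 8 members all KO libraries lay below all WT libraries and in 1 they lay higher throughout, against 9.01% and 7.83% of all genes. The fitted value was lower in KO for 28 of the 38, against 48.8% of all genes, and the median log2 fold change was -0.21 against 0.0064. Without WT replicate 3 the lower members at an unadjusted p under 0.05 numbered 6, and without both KO replicate 3 and WT replicate 3 they numbered 5. Members share cell types and libraries, so they are not independent of each other.

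**Figure D2:**
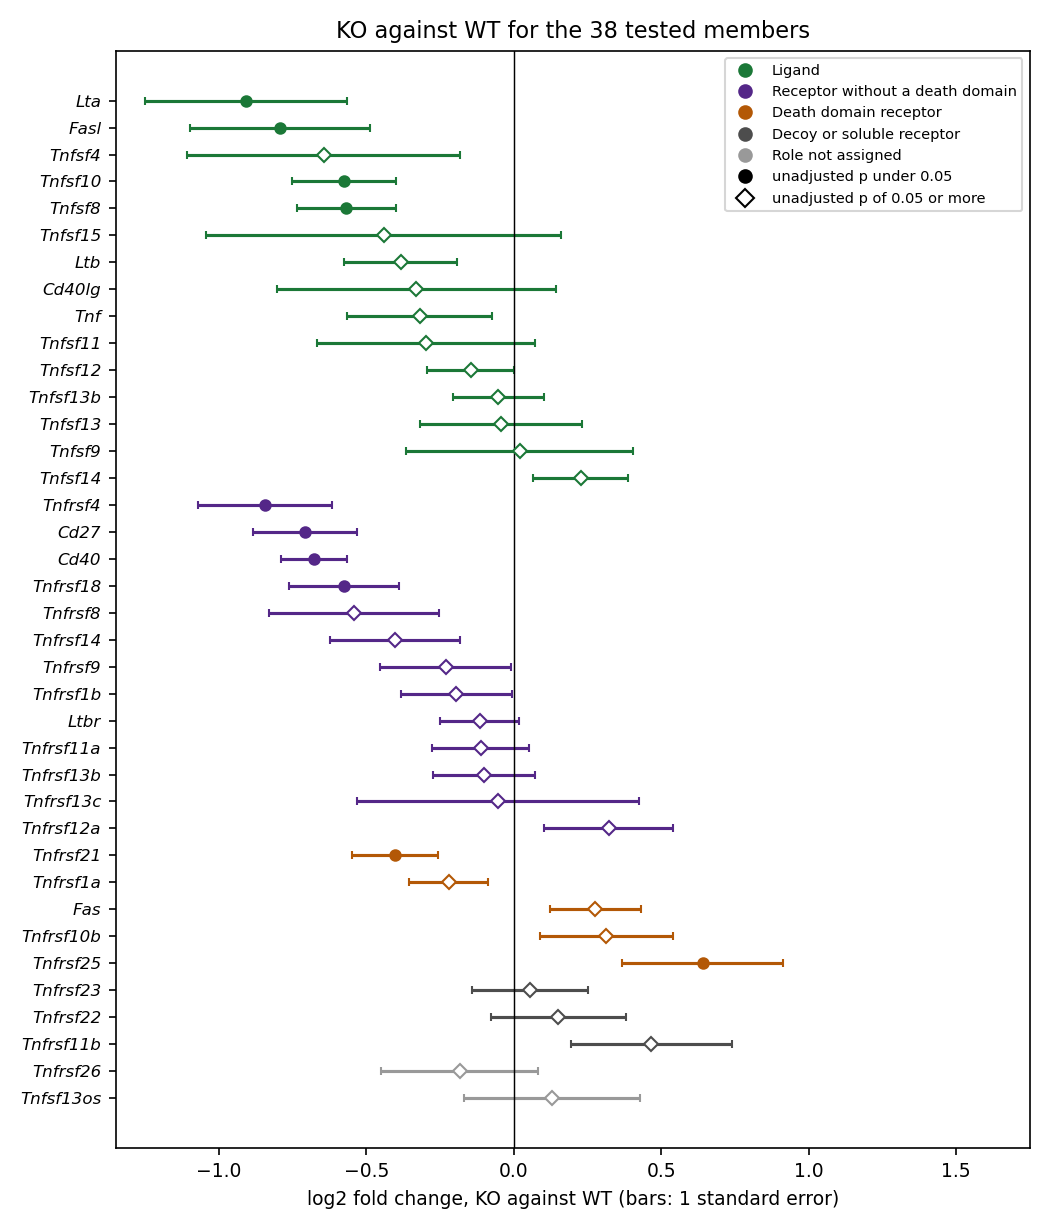
Log2 fold change of KO against WT for the 38 tested members, grouped by role, with bars of 1 standard error. Filled circles mark an unadjusted p under 0.05 and open diamonds the rest. Among ligands 13 of 15 lie left of 0, and among receptors without a death domain, decoys and Tnfrsf26 apart, 12 of 13.

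Summed markers of T cells, dendritic cells and natural killer cells were lower in every KO library than in every WT library, while those of B cells and macrophages did not separate the groups. In bulk tissue fewer cells of a type and less RNA per cell cannot be told apart. Of 13 T cell markers 12 had an unadjusted p under 0.05, all with lower values in KO, against 6.08% of all genes in that direction. Summed T cell markers were at 224 to 274 CPM in KO and 357 to 463 CPM in WT. Dendritic cell markers summed to 234 to 277 CPM in KO and 369 to 566 CPM in WT, with 5 of 8 at an unadjusted p under 0.05. The largest part of that sum was Fscn1, with means of 127 CPM in KO and 241 CPM in WT, and 328 CPM in WT replicate 3. All 8 were fitted lower in KO, but Zbtb46 was level, with a mean of 21.4 CPM in both groups. Cd209a, Siglech and Xcr1 overlapped between the groups as well. Natural killer cell markers summed to 86.1 to 142 CPM in KO and 180 to 276 CPM in WT, with 7 of 8 at an unadjusted p under 0.05. B cell markers, at 47.3 to 64.5 CPM in KO and 63.9 to 96.2 CPM in WT, overlapped between the groups. Of these, 5 of 8 were fitted higher in KO, and 2 had lower values at an unadjusted p under 0.05. Macrophage and monocyte markers, at 3744 to 4541 CPM in KO and 4273 to 6430 CPM in WT, overlapped as well. Of these 9, 1 was lower and 1 higher at that p. The lower was the monocyte gene Ly6c2, at 95.6 to 231 CPM in KO and 258 to 741 CPM in WT. The higher was Mrc1, at 184 to 239 CPM in KO and 139 to 189 CPM in WT, with overlap. Ccr2 of the same list overlapped too, at 208 to 524 CPM in KO and 350 to 555 CPM in WT. Smooth muscle and white adipocyte sums went the other way, higher in every KO library than in every WT library. At an unadjusted p under 0.05, 6 of 7 smooth muscle and 4 of 6 white adipocyte markers had higher values in KO, against 5.23% of all genes. No marker of these lists was at 0 counts over the 6 libraries. The part of these cells in the members' values was not tested.

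Cd40 had the smallest p of the members. It encodes the receptor on dendritic cells, macrophages and B cells through which helper T cells license antigen-presenting cells (ENSMUSG00000017652, protein-coding, chromosome 2, 165055627 to 165072948, GRCm38). Its level was 43.6, 41.5 and 42.3 CPM in the KO libraries against 69.4, 74.1 and 60.4 CPM in the WT libraries. The KO libraries lay close together and all lay below the WT libraries, with a coefficient of variation of 2.47% in KO and 10.2% in WT. The mean was 42.5 ± 1.05 CPM (KO) against 68 ± 6.93 CPM (WT; SD over 3 libraries each), a 1.6-fold lower level (log2 fold change -0.68, SE 0.11, adjusted p = 0.102, edgeR). Over the 15 alternative settings the log2 fold change lay between -0.76 and -0.61 and the adjusted p between 0.000235 and 0.273. The call was made with DESeq2 (adjusted p = 0.000235), with no filter on low counts (adjusted p = 0.0029) and without WT replicate 3 (adjusted p = 0.0382), and in none of the other 12. Its ligand gene Cd40lg, made by activated helper T cells, was sparse, with 26, 33 and 18 counts in the KO libraries against 14, 30 and 43 in the WT libraries, and the groups overlapped (log2 fold change -0.33, SE 0.47).

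Of the 13 tested receptors without a death domain, decoys and Tnfrsf26 apart, 4 had an unadjusted p under 0.05, all with lower values in KO. Over all genes 6.08% were lower at that p. Beside Cd40 the 4 were Cd27, Tnfrsf4 and Tnfrsf18. Cd27, which supports T cell survival after priming (ENSMUSG00000030336, chromosome 6, 125232622 to 125237010), stood at 8.26, 10.6 and 10.4 CPM in the KO libraries against 14.9, 18.9 and 14.2 CPM in the WT libraries. Tnfrsf4, which encodes OX40, a receptor of activated T cells (ENSMUSG00000029075, chromosome 4, 156013843 to 156016612), stood at 11.6, 8.59 and 6.81 CPM in KO and 13.3, 15.9 and 19.2 CPM in WT. Tnfrsf18, which encodes GITR, abundant on regulatory T cells (ENSMUSG00000041954, chromosome 4, 156026164 to 156028895), stood at 9.98, 7.78 and 7.69 CPM in KO and 13.2, 10.5 and 14.2 CPM in WT. All 3 KO libraries lay below all 3 WT libraries for each of these genes, as they did for 9.01% of all genes. The log2 fold changes were -0.71 (SE 0.18) for Cd27, -0.84 (SE 0.23) for Tnfrsf4 and -0.57 (SE 0.19) for Tnfrsf18, with adjusted p-values of 0.174, 0.205 and 0.281 (edgeR). Tnfrsf4 and Tnfrsf18 are neighbours on the same strand. Of the exon bases of Tnfrsf18, 27.2% overlap Gm16008 on the opposite strand, so its count is uncertain where the counting did not use strand. With no filter on low counts Cd27 (adjusted p = 0.036) and Tnfrsf4 (adjusted p = 0.0165) were called, as they were by DESeq2 (0.0282 and 0.0287). Without both KO replicate 3 and WT replicate 3 the log2 fold change of Tnfrsf4 was -0.53.

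The other 9 receptors of that class did not separate the groups. Tnfrsf9, induced on activated T and NK cells, stood at 9.47, 12.5 and 12.3 CPM in the KO libraries against 11.1, 11.2 and 17.96 CPM in the WT libraries, and without WT replicate 3 its sign turned. Tnfrsf8, which encodes CD30, had log2 fold change -0.54 (SE 0.29), and Tnfrsf14, the entry mediator that binds LIGHT and BTLA, had -0.40 (SE 0.22). Their groups overlapped. Tnfrsf13b and Tnfrsf13c, the B cell receptors of BAFF, differed by log2 fold changes of -0.10 (SE 0.17) for the former and -0.053 (SE 0.48) for the latter.

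**Figure D3:**
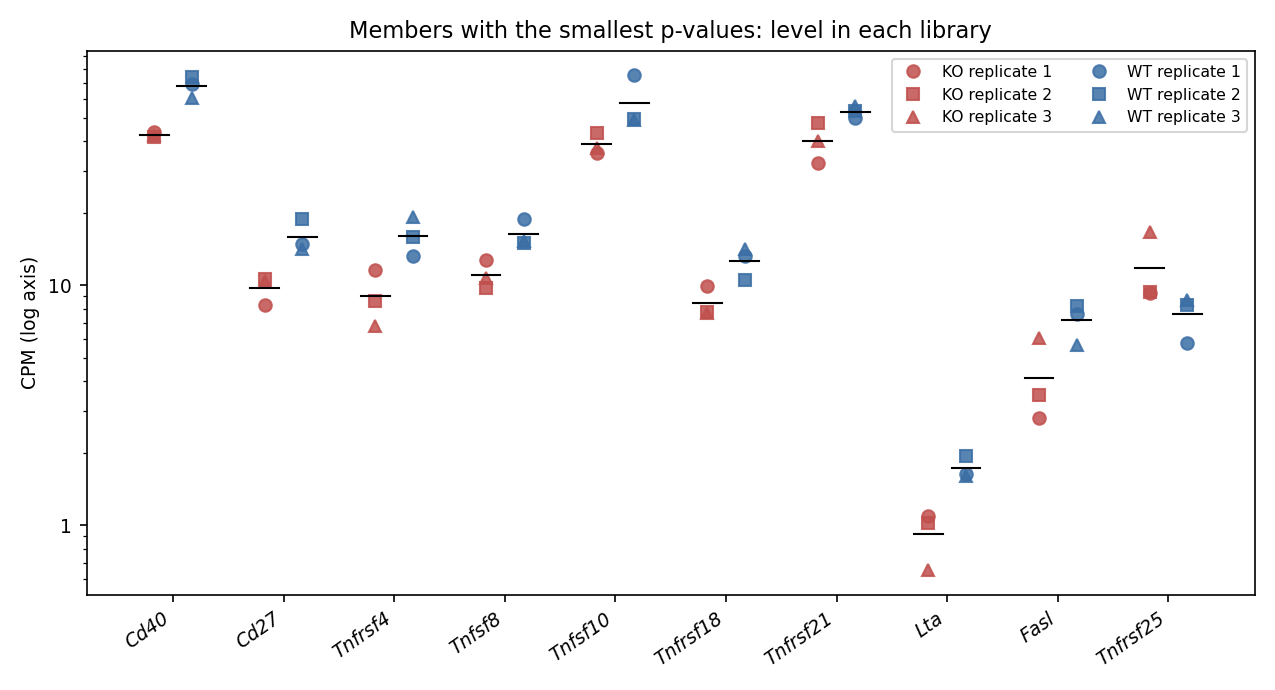
Level in CPM (log axis) of the 10 members with an unadjusted p under 0.05, ordered by p, in each library; KO libraries are red, WT libraries blue, symbols give the replicate and black lines the group means. The groups do not overlap except for Fasl, and Tnfrsf25 is the member with KO above WT.

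Among ligands 4 of 15 tested had an unadjusted p under 0.05, all with lower values in KO, against 6.08% of all genes in that direction. Summed ligand CPM was 195 to 233 in KO and 262 to 265 in WT. Summed receptor CPM overlapped between the groups, at 1002 to 1273 in KO and 1242 to 1307 in WT. Tnfsf10, which encodes TRAIL, an interferon-inducible death ligand (ENSMUSG00000039304, chromosome 3, 27317028 to 27342427), stood at 35.8, 43.2 and 37.3 CPM in the KO libraries against 75.01, 49.6 and 48.8 CPM in the WT libraries. WT replicate 1 was the highest, and without it the log2 fold change went from -0.58 (SE 0.18) to -0.34 (SE 0.12). Tnfsf8, the CD30 ligand of activated T cells, stood at 12.8, 9.72 and 10.7 CPM in KO and 18.9, 15 and 15.4 CPM in WT (log2 fold change -0.57, SE 0.17). Neither gene's groups overlapped, and their adjusted p-values were 0.261 and 0.245 (edgeR). With no filter on low counts Tnfsf10 was called (adjusted p = 0.0402).

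Fasl and Lta are ligands of cytotoxic and helper lymphocytes. Fasl, with which killer lymphocytes trigger death through Fas, stood at 2.81, 3.48 and 6.01 CPM in the KO libraries against 7.61, 8.19 and 5.64 CPM in the WT libraries. KO replicate 3 lay above WT replicate 3, so the groups overlapped (log2 fold change -0.79, SE 0.31), and without KO replicate 3 the value was -1.18 (SE 0.28). Lta, the soluble lymphotoxin, was counted 19, 20 and 14 times in KO and 30, 32 and 28 times in WT, and the groups did not overlap (log2 fold change -0.91, SE 0.34). At so few counts its unadjusted p was under 0.05 in 9 of the 15 alternative settings. Lta, Tnf and Ltb lie side by side on chromosome 17. Ltb stood at 32.4, 47.1 and 38.8 CPM in KO and 39.7, 63.4 and 51.3 CPM in WT, with overlapping groups (log2 fold change -0.38, SE 0.19). With 1 library left out its value lay between -0.54 (without WT replicate 1) and -0.21 (without WT replicate 2), and its unadjusted p was under 0.05 in 4 of the 15 alternative settings.

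Tnf, the founding ligand, stood at 16.6, 17.9 and 21.6 CPM in the KO libraries against 17.9, 33.6 and 18.6 CPM in the WT libraries. WT replicate 2 alone was high, and the other 2 WT libraries lay within the KO range. The log2 fold change was -0.32 (SE 0.25) with all libraries and 0.035 (SE 0.16) without WT replicate 2, so its direction rests on that library. Tnfrsf1a stood at 230, 215 and 271 CPM in KO and 247, 293 and 295 CPM in WT (log2 fold change -0.22, SE 0.13). Tnfrsf1b stood at 267, 393 and 460 CPM in KO and 438, 436 and 409 CPM in WT (log2 fold change -0.20, SE 0.19). KO replicate 1 was low, and without it the value was -0.0039 (SE 0.14), while it was -0.37 (SE 0.19) without KO replicate 3. In CPM the group SD of Tnfrsf1b was 97.9 CPM in KO and 16.3 CPM in WT.

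The ligands with a role in B cell survival, Tnfsf13b (BAFF) and Tnfsf13 (APRIL), stood near equality. Tnfsf13b was at 28.1, 22.4 and 28.4 CPM in the KO libraries against 31.3, 23.04 and 27.5 CPM in the WT libraries (log2 fold change -0.053, SE 0.16). Tnfsf13, at 2.8 to 4.55 CPM, shares 60.05% of its exon bases with other genes, among them the read-through gene Tnfsfm13 and Tnfsf13os on the opposite strand, and Tnfsf12 (TWEAK) shares 48.2% with Tnfsfm13. Counts of these 4 genes can therefore be split, and each is uncertain. Log2 fold changes were -0.15 (SE 0.15) for Tnfsf12, -0.17 (SE 0.30) for Tnfsfm13 and 0.13 (SE 0.30) for Tnfsf13os. Of the other ligands, Tnfsf14 (LIGHT) had the highest fitted value at 0.23 (SE 0.16), and Tnfsf4 (-0.65, SE 0.46) and Tnfsf15 (-0.44, SE 0.60) were too sparse for precision. Tnfsf9 stood at 4.19, 4.76 and 12.4 CPM in KO and 6.31, 6.91 and 7.89 CPM in WT. KO replicate 3 lay far above and the other KO libraries below the WT libraries, so that the log2 fold change of 0.020 (SE 0.38) became -0.65 (SE 0.24) without KO replicate 3. Of its exon bases, 14.9% overlap Gm11110 on the opposite strand.

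The 5 death domain receptors had fitted values on both sides, 2 lower and 3 higher in KO. Tnfrsf21, also called DR6, stood at 32.5, 47.5 and 40.2 CPM in the KO libraries against 49.8, 53.2 and 56.1 CPM in the WT libraries, without overlap (log2 fold change -0.40, SE 0.14, adjusted p = 0.328, edgeR). Tnfrsf25, or DR3, a receptor of T cells and innate lymphoid cells for the ligand Tnfsf15 (ENSMUSG00000024793, chromosome 4, 152115934 to 152120119), was on the other side. It stood at 9.3, 9.36 and 16.7 CPM in KO and 5.76, 8.31 and 8.69 CPM in WT, and every KO library exceeded every WT library. KO replicate 3 was the highest by far and the other 2 KO libraries were within 1 CPM of the highest WT library. The fitted difference on the log2 scale was 0.64 (SE 0.27, adjusted p = 0.426, edgeR), and 0.30 (SE 0.24) without KO replicate 3, the library with high skeletal muscle markers. Any part of those muscle markers in this change was not tested. The unadjusted p of Tnfrsf25 was under 0.05 in 10 of the 15 alternative settings, and not without WT replicate 1 or WT replicate 2. Fas stood at 42.1, 37.2 and 55.7 CPM in KO and 38.2, 38.3 and 35.1 CPM in WT (log2 fold change 0.28, SE 0.15). Tnfrsf10b, the TRAIL receptor of the mouse, stood at 16.3, 11.4 and 22.2 CPM in KO and 13.5, 13.2 and 13.5 CPM in WT (log2 fold change 0.31, SE 0.22). Fas and Tnfrsf10b were again highest in KO replicate 3, and without that library their log2 fold changes were 0.092 and 0.047. Without KO replicate 2 they were 0.40 and 0.53, each with an unadjusted p under 0.05 (edgeR).

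Receptor and ligand could also be set against each other within a library. Fas over Fasl, in CPM per kilobase, was 14.1, 10.1 and 8.69 in the KO libraries against 4.71, 4.4 and 5.84 in the WT libraries. Each KO library had the higher ratio, an untested description chosen after the values were seen. Tnfsf11 (RANKL) over Tnfrsf11b (osteoprotegerin, the soluble decoy that neutralises it) was 0.91, 0.833 and 1.73 in KO and 1.7, 0.784 and 5.16 in WT. WT replicate 3 alone had a high ratio, and the groups overlapped.

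The remaining receptors act in tissue injury, bone turnover and decoy binding. Tnfrsf12a stood at 73.5, 48.5 and 71.6 CPM in the KO libraries against 46.3, 68.1 and 40.5 CPM in the WT libraries (log2 fold change 0.32, SE 0.22). With 1 library left out its value lay between 0.17 (without WT replicate 3) and 0.57 (without WT replicate 2), and its unadjusted p was under 0.05 without WT replicate 2 and without KO replicate 2. Tnfrsf11b stood at 30.2, 23.7 and 24.7 CPM in KO and 21.3, 24.9 and 10.6 CPM in WT. WT replicate 3 was the low library, and the log2 fold change of Tnfrsf11b was 0.47 (SE 0.27) with it and 0.18 (SE 0.17) without it. The log2 fold change was -0.11 (SE 0.16) for Tnfrsf11a (RANK) and -0.12 (SE 0.14) for Ltbr. The receptors Tnfrsf22, Tnfrsf23 and Tnfrsf26 form a cluster on chromosome 7. Tnfrsf22 (0.15, SE 0.23) and Tnfrsf23 (0.055, SE 0.20), decoys for TRAIL, share sequence. Of the 50-base words in the transcripts of Tnfrsf22, 27.4% also occur in transcripts of other genes, mostly Tnfrsf23, and 19.3% of those of Tnfrsf23, mostly in Tnfrsf22, so reads can be split between them. Tnfrsf26 had a log2 fold change of -0.18 (SE 0.27).

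Members also varied among themselves in how tightly the libraries agreed. The median SD of log2 CPM was 0.27 in KO and 0.27 in WT for the members and 0.18 and 0.21 for all genes tested. WT replicate 2 was the highest library for 12 of the 38 members and KO replicate 1 the lowest for 12. The same counts over all genes were not made, so a trait of the members and one of these libraries cannot be told apart.

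The pathway around these receptors was taken from a list of 40 genes, all of them tested, that holds adaptors, kinases, ubiquitin ligases and deubiquitinases, NF-kappaB subunits and their inhibitors, Casp8 and its homologue Cflar, and the sheddase gene Adam17. None was called over all genes, 6 had an unadjusted p under 0.05, all with lower values in KO, and in 11 the KO libraries lay wholly below the WT libraries while in 0 they lay above. The shares over all genes were 6.08% for lower values at that p and 9.01% for KO wholly below WT. The median log2 fold change was -0.11. Traf1, an adaptor induced by NF-kappaB, had the smallest p, at 69.9, 72.5 and 81.02 CPM in the KO libraries against 116, 128 and 109.9 CPM in the WT libraries (log2 fold change -0.66, SE 0.11, adjusted p = 0.102, edgeR). Map3k14, which encodes NIK, the kinase that opens the non-canonical NF-kappaB route below Cd40 and Ltbr, stood at 27.4, 33.7 and 34.8 CPM in KO and 44.5, 43.8 and 47.8 CPM in WT (log2 fold change -0.51, SE 0.12). Relb, a subunit of the non-canonical dimer, stood at 73.4, 74.3 and 80.04 CPM in KO and 92.8, 87.8 and 108.7 CPM in WT (log2 fold change -0.34, SE 0.11). These 3 genes had no overlap between the groups. Rnf31, the catalytic part of the linear ubiquitin ligase (-0.39, SE 0.13), Nfkbib (-0.32, SE 0.13) and the death protease gene Casp8 (-0.28, SE 0.12) had an unadjusted p under 0.05 as well, while Sharpin (-0.24, SE 0.11) and the necroptosis kinase gene Ripk3 (-0.25, SE 0.12) did not. The name rule leaves out the superfamily genes Relt, Eda2r, Eda and Ngfr, and Edaradd, the adaptor gene of the receptor Edar. Of these 5 tested genes 0 had an unadjusted p under 0.05, against 11.3% of all genes in either direction. In Relt alone all KO libraries lay below all WT libraries, as in 9.01% of all genes.

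**Figure D4:**
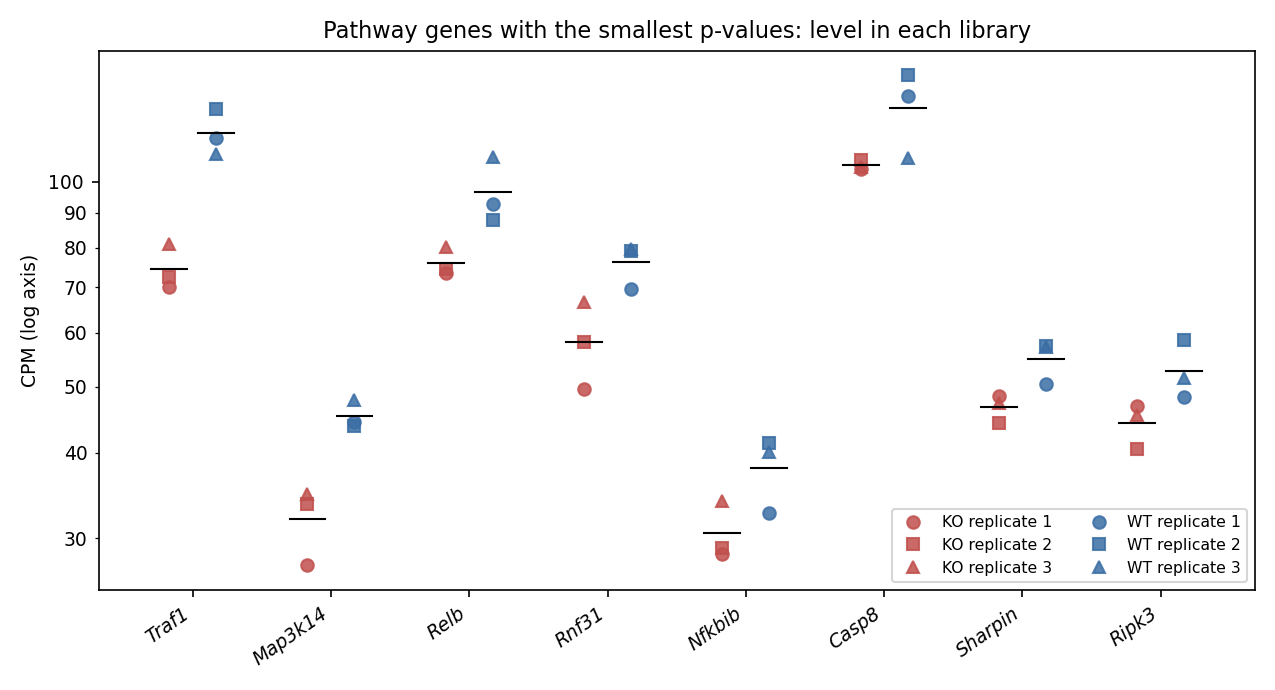
Level in CPM (log axis) in each library of the 8 genes of the signalling list with the smallest p-values, KO red and WT blue, with group means as black lines. Traf1 separates the groups most widely, and the groups overlap for Nfkbib.

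Levels were also expressed per 100 CPM of summed T cell markers, a scale chosen after the values were seen. These sums were lower in every KO library, so the division lifts the KO values of every gene relative to WT. On this scale 0.111% of all genes tested had all KO libraries below all WT libraries and 70.6% had them above. Of the 38 tested members 0 lay below, 15 lay above and 23 overlapped. Cd27 was 3.69, 3.87 and 4.2 in the KO libraries against 4.17, 4.07 and 3.79 in the WT libraries. Cd40 was 19.5, 15.2 and 17.02 in KO and 19.4, 16 and 16.1 in WT. Traf1 was 31.2, 26.5 and 32.6 in KO and 32.4, 27.5 and 29.3 in WT. The groups overlapped for these 3 genes, which had not overlapped in CPM. Both these genes and the divisor were lower in every KO library, which favours such overlap, and its cause was not tested. Tnfrsf25 was already higher in every KO library in CPM, so its place above WT on this scale is fixed by the division. Per 100 CPM of summed dendritic cell markers, which were lower in every KO library as well, 0 members lay below, 16 above and 22 overlapped, against 0.0308% of all genes below and 73.8% above.

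**Figure D5:**
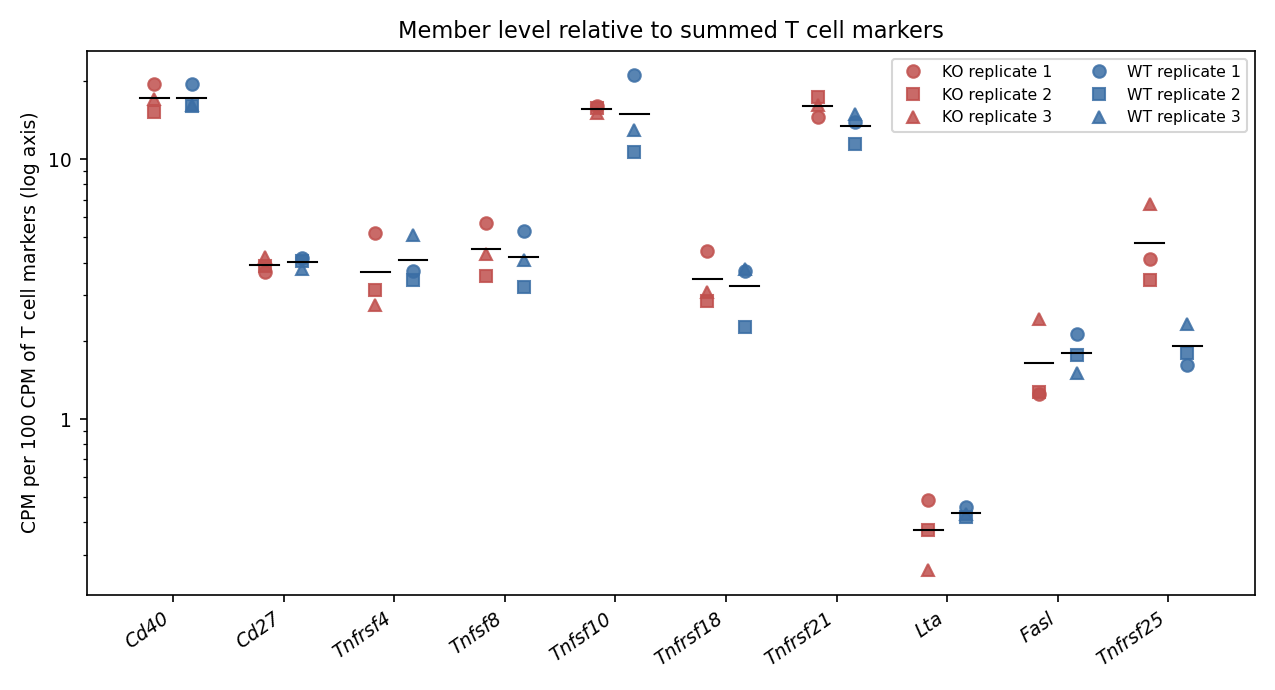
The 10 members of smallest p as CPM per 100 CPM of summed T cell markers (log axis) in each library, KO red and WT blue, with group means as black lines. The groups overlap for the members shown other than Tnfrsf25, which already lay above WT in CPM, and the T cell marker sums themselves were lower in every KO library.

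Promoter windows from RefSeq, 250 bases before to 50 after a start on GRCm38.p6, were available for 31 of the 42 members in 35 windows. Searched on both strands were the NF-kappaB motif, the core of the interferon-stimulated response element (ISRE), the STAT-type TTCNNNGAA and the AP-1 type TGANTCA. NF-kappaB matched in 11.4% of member windows and 8.46% of all 32851 windows, the ISRE core in 11.4% and 3.44%, TTCNNNGAA in 25.7% and 8.3%, and TGANTCA in 20% and 7.81%. With 35 windows these shares are descriptions, and a match is not a site. The windows of Cd27, Tnfrsf4, Tnfrsf21, Tnfsf8, Tnfsf10 and Fasl, all among the lower members, held 0 matches of these motifs, as did that of Tnf. Cd40 had no window. Shown are some of the windows with a match: those of the neighbours Lta and Ltb, of Tnfrsf18 among the lower receptors, and of Tnfrsf25, the higher one. Windows with a match of other members, such as Fas and Tnfrsf1b, are not shown. Matches are in capitals, written 5′ to 3′ on the gene's strand.
Lta chr17:35205302-35205601 minus strand: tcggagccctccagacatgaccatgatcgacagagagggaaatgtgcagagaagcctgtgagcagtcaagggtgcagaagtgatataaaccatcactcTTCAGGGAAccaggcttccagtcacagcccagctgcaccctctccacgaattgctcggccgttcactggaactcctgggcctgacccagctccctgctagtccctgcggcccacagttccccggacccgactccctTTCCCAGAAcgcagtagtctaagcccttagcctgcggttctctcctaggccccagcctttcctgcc
Ltb chr17:35194257-35194556 plus strand: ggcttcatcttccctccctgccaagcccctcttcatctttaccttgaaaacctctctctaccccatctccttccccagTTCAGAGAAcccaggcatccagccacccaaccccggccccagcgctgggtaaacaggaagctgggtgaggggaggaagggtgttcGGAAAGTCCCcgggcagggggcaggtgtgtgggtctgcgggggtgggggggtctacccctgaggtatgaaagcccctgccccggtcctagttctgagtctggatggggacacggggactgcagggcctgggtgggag
Tnfrsf18 chr4:156026072-156026371 plus strand: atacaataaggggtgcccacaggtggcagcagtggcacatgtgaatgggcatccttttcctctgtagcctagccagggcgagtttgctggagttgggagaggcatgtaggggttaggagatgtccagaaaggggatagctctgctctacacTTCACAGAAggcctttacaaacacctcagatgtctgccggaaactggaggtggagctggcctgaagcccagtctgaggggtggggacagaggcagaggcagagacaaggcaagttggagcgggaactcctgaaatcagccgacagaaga
Tnfrsf25 chr4:152116093-152116392 plus strand: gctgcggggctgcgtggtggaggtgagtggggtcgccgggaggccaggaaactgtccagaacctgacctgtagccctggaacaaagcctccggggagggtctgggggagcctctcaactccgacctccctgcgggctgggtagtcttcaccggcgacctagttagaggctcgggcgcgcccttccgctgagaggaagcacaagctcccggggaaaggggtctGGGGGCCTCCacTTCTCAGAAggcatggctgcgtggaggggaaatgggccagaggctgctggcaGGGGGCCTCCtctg
Lta holds 2 matches of TTCNNNGAA, with first bases 152 and 16 bases before the start, and Tnfrsf18 holds 1. Ltb holds the NF-kappaB match GGAAAGTCCC and 1 match of TTCNNNGAA. The Tnfrsf25 window shown holds the NF-kappaB match GGGGGCCTCC at 2 places and 1 match of TTCNNNGAA, and its other window, chr4:152115684-152115983, holds 0 matches of the 4 motifs.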

How the data were processed

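RNA was sequenced from 3 KO and 3 WT aneurysm samples after poly-T selection, per the labels' protocols. The deposited values are raw read counts per gene, made by the authors with HISAT2 2.0.5, featureCounts 1.5.0-p3 and GRCm38, per the submitters' processing notes. Not given in the sources used here are the strand setting, the treatment of multi-mapping reads and the annotation release.

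The tests ran in R 4.3.3, with edgeR 4.0.16 (filterByExpr, TMM, quasi-likelihood test, Benjamini-Hochberg over 16237 genes, threshold 0.05), limma 3.58.1 and DESeq2 1.42.0. The standard error was the log2 fold change divided by the square root of F. CPM used TMM-scaled totals, and log2 CPM a prior count of 2. The biological coefficient of variation was 19.6%. No 2 libraries agreed within sampling noise (chi-square 28.3 to 87.3 per degree of freedom). Exon lengths, positions and overlaps came from GENCODE mouse release 21. Figures were drawn with matplotlib 3.10.9.

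Members, gene lists, role groups and tests were chosen with earlier results of these data known. Every member may be named; values in every library were planned for members with an unadjusted p under 0.05 or non-overlapping libraries and for a fixed set including Tnf and its receptors, and for the 8 pathway genes of smallest p, of which some are given by fold change. Alternatives were other tests, scalings and filters, a replicate block and libraries left out. Values of Ltb, Tnfrsf9, Tnfrsf10b, Tnfsf9, Cd40lg and the ratios were added after values were seen.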

Additional observations from a re-analysis of the deposited data

How the results depend on the processing

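Over all genes tested the number called was 2, and it was 451 with DESeq2, 644 with no filter on low counts, 206 without both KO replicate 3 and WT replicate 3, and 0 with limma-voom, with a mean CPM of at least 1 and with the replicate block. Leaving out 1 library gave 0 to 155, the 155 without WT replicate 3. Members called numbered 0, and 3 with DESeq2, 4 with no filter on low counts (Cd27, Cd40, Tnfrsf4 and Tnfsf10) and 0 to 1 with 1 library left out, the 1 being Cd40 without WT replicate 3. Members with lower values at an unadjusted p under 0.05 numbered 9, 5 without both KO replicate 3 and WT replicate 3, and 6 to 10 with 1 library left out. Members with higher values numbered 1, 2 with no filter on low counts, 0 with limma-voom and 0 without both KO replicate 3 and WT replicate 3, and 0 to 4 with 1 library left out, the 4 without KO replicate 2. The members' median log2 fold change of -0.21 ranged from -0.35 (without KO replicate 3) to -0.18 with 1 library left out. The cause of these shifts was not tested. The replicate numbers did not pair the libraries: same-numbered KO and WT libraries had correlations of -0.10, -0.062 and -0.12 in their deviations from the group means, and no library correlated best with its own number. With the replicate block 0 members were called, and 10 had lower and 1 higher values at an unadjusted p under 0.05.

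Of 569 comparisons of a member's value under another setting, 534 kept direction and call, 8 gained a call and 27 turned sign, in none of which either value was called. Tnfsf9 turned to -0.12 with limma-voom and -0.15 with the replicate block. With 1 library or both replicate 3 libraries left out, the ranges of members that turned sign were -0.65 to 0.28 for Tnfsf9, -0.51 to 0.057 for Tnfrsf26, -0.28 to 0.16 for Tnfsf13, -0.15 to 0.18 for Tnfrsf23, -0.16 to 0.057 for Tnfsf13b, -0.40 to 0.30 for Tnfrsf13c, -0.28 to 0.047 for Tnfrsf13b, -0.85 to 0.35 for Tnfsf15, -0.58 to 0.035 for Tnf, -0.036 to 0.31 for Tnfrsf22, -0.65 to 0.10 for Tnfsf11, -0.35 to 0.034 for Tnfrsf9, -0.013 to 0.36 for Tnfsf13os and -0.69 to 0.31 for Cd40lg. With 1 library left out the log2 fold change of 29 of the 38 members turned sign or moved by over 1.5 times at least once, and those of Cd27, Cd40, Fasl, Lta, Tnfrsf18, Tnfrsf1a, Tnfrsf21, Tnfrsf4 and Tnfsf8 did not. Low depth limits Cd70, Tnfrsf17, Tnfsf18, Tnfrsf19, Tnfsf15, Tnfsf4, Lta and Cd40lg, whose counts were at most 43 in a library.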
